A study of Homo sapiens with 12 samples.

Results

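Plasminogen activators, the urokinase receptor and a set of serpins were followed across 12 arrays of MDA-MB-231 cells, an established human line of triple-negative breast cancer. The members were taken by gene symbol: PLAT, PLAU, PLAUR, SERPINE2, SERPINB2, SERPINB5 and SERPINB8. Of these 7 genes, 6 had a probe set annotated with that symbol alone, out of 11963 genes on the array so annotated, and they were read by 9 probe sets. SERPINB2, which encodes plasminogen activator inhibitor 2, was not analysed here. Where a gene had several probe sets, the one with the highest mean over all arrays is its main value.

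Plasminogen activators are secreted serine proteases that cut plasminogen into plasmin, a broad protease of fibrin and extracellular matrix. PLAT encodes the tissue-type activator, tPA, known above all for dissolving clots. PLAU encodes the urokinase-type activator, uPA, which acts at cell surfaces when bound to its receptor uPAR, the product of PLAUR. Serpins are protease inhibitors that trap their target by a change of shape after being cut. In breast cancer uPA and its receptor are known for their part in matrix breakdown and invasion.

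The groups were manassantin, rotenone, digoxin and the vehicle DMSO, each with 3 arrays and 24 h of treatment in serum-supplemented DMEM. Manassantin is a plant lignan, which the design text calls manassantin A, rotenone blocks respiratory complex I, and digoxin, a cardiac glycoside, inhibits the sodium and potassium pump of the cell membrane. The design text names digitoxin where the titles name digoxin, and the labels do not settle which of them was used. The sources used here give neither doses nor oxygen levels, and all cells are of 1 line. The labels do not say whether the 3 arrays of a group are separate cultures. A p-value therefore reflects the spread among these samples alone, and that spread may be technical.

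Values are log2 intensities, and a difference of 1 is a doubling of signal. Fold changes are differences of group means with the standard error (SE) of a limma model over all 12 arrays. A gene is called where its Benjamini-Hochberg adjusted p over 11963 genes is under 0.05. For probe sets other than the main one, the adjustment is over all 19064 probe sets. All 6 fixed markers of a mesenchymal line (VIM, CD44, CAV1, EGFR, MSN, ANXA1) lay above 5.75, the 40th percentile of genes. Of 7 markers fixed as low, PGR, CDH1 and FOXA1 lay under it, while ESR1, ERBB2, EPCAM and GATA3 did not, with means of 6.19 to 8.002. Among 10 markers of blood, endothelial and fibroblast cells, 9 lay under it and COL1A1 (6.53) above. The 18S rRNA control probe sets averaged 9.83 ± 0.481 with manassantin, 10.01 ± 0.152 with rotenone, 10.08 ± 0.163 with digoxin and 10.40 ± 0.315 with DMSO (SD, n = 3 each).

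Both activators were lower with digoxin, while the main probe set of PLAUR, the urokinase receptor gene, was higher with each of the 3 compounds. Tissue plasminogen activator was also higher with manassantin and with rotenone. The manassantin calls of PLAT and PLAUR were lost in 7 and 17 of 22 alternative settings. Those with rotenone and with digoxin held in all 22. The serpin genes SERPINE2 and SERPINB8 rose with digoxin and did not pass the test with manassantin or rotenone, and SERPINB5 did not pass in any comparison. In bulk RNA, a lower level in each cell and fewer cells carrying the transcript cannot be told apart.

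**Figure D1:**
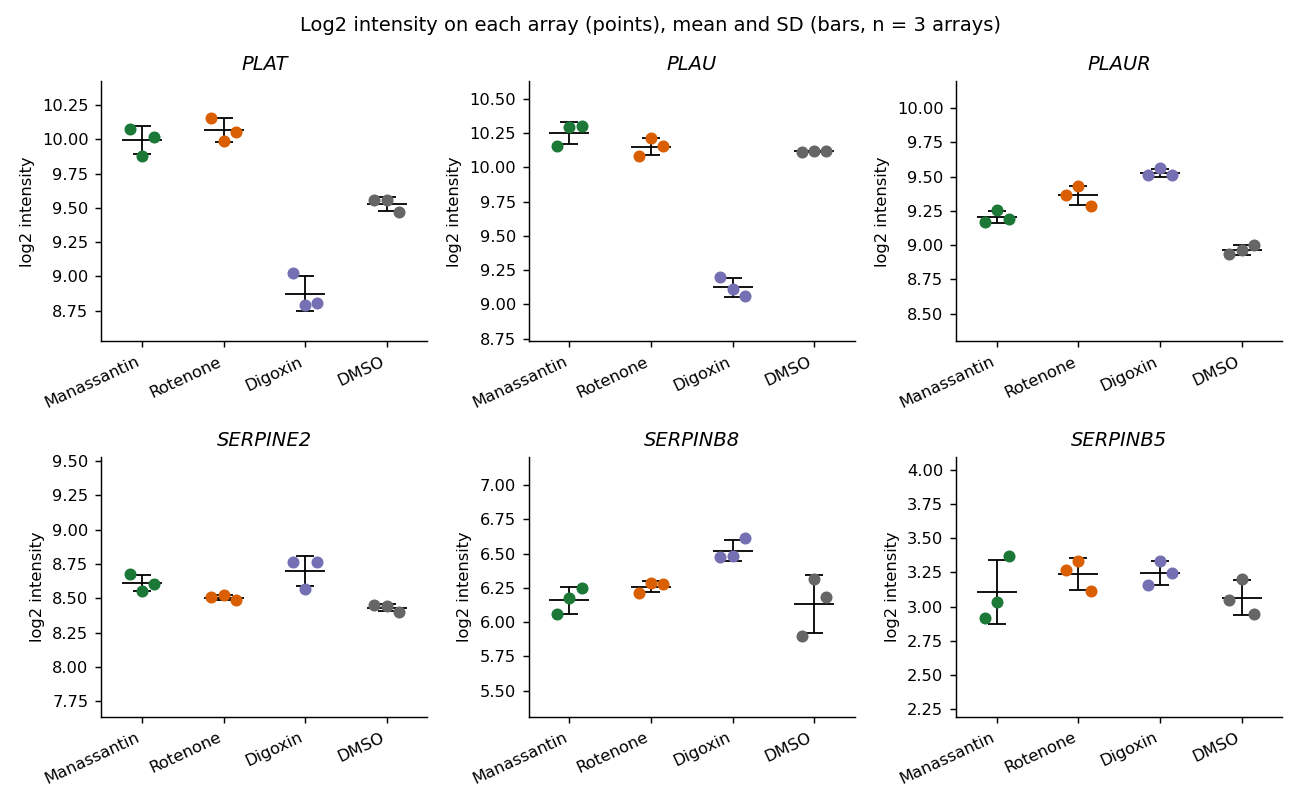
Log2 intensity of the main probe set of 6 genes (vertical axis, the same height of scale in every panel) on each array (points) by treatment (horizontal axis), with mean and SD as bars (n = 3 arrays per group). PLAT and PLAU lie lowest on the digoxin arrays, and the 3 DMSO arrays of PLAUR lie under all other arrays.

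PLAT read 10.08, 9.88 and 10.02 on the manassantin arrays, 10.16, 9.99 and 10.05 on the rotenone arrays, 9.02, 8.79 and 8.81 on the digoxin arrays and 9.56, 9.56 and 9.47 on the DMSO arrays. The manassantin and rotenone arrays lay above every DMSO array and the digoxin arrays below every one. With manassantin the gene rose by 0.46 ± 0.075 (SE, adjusted p = 0.0187) and with rotenone by 0.54 ± 0.075 (adjusted p = 0.00148). With digoxin it fell by 0.65 ± 0.075 on the log2 scale (adjusted p = 1.17e-05), a 1.57-fold lower signal. In order, rotenone stood highest, then manassantin, DMSO and digoxin, and for the first pair the difference was not called (manassantin minus rotenone -0.07, 95% interval -0.24 to 0.09). With the replicate number as a block, that interval was -0.20 to 0.05 (adjusted p = 0.446). The manassantin call moved with the settings. The 18S control stood at -0.565 with manassantin relative to DMSO, and with it as a covariate the change of PLAT was 0.50 (adjusted p = 0.248), within a range of 0.00029 to 0.248 over 22 alternatives. The call was also lost with the compared groups only, without manassantin replicate 1 (0.42) or 3 (0.45) and without DMSO replicate 1 (0.48), 2 (0.48) or 3 (0.43).

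PLAU read 10.16, 10.30 and 10.30 on the manassantin arrays, 10.08, 10.21 and 10.16 on the rotenone arrays, 9.20, 9.12 and 9.06 on the digoxin arrays and 10.12 on each of the 3 DMSO arrays. The digoxin arrays lay about 1 log2 unit under all others, and the rotenone arrays on both sides of DMSO. With digoxin the gene fell by 0.99 ± 0.057 (SE, adjusted p = 3.03e-08), a 1.99-fold lower signal and the largest change among the members against DMSO. The differences were 0.13 ± 0.057 with manassantin (adjusted p = 0.273, 95% interval 0.01 to 0.26) and 0.03 ± 0.057 with rotenone (adjusted p = 0.793, 95% interval -0.09 to 0.16), and neither was called. The gene's other probe set, 211668_s_at, read 7.99, 7.86 and 7.80 with digoxin, against 8.86, 8.73 and 8.77 with DMSO. It fell by 0.91 ± 0.075 (adjusted p = 6.91e-07 over all 19064 probe sets), so both probe sets of the urokinase gene gave the same call.

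PLAUR, the receptor gene, read 9.17, 9.25 and 9.19 on the manassantin arrays, 9.37, 9.43 and 9.29 on the rotenone arrays, 9.51, 9.56 and 9.51 on the digoxin arrays and 8.93, 8.96 and 9.004 on the DMSO arrays. On this main probe set, 210845_s_at, no array of one group reached into another. The gene rose by 0.24 ± 0.050 with manassantin (SE, adjusted p = 0.0483), by 0.40 ± 0.050 with rotenone (adjusted p = 0.000726) and by 0.56 ± 0.050 with digoxin (adjusted p = 1.20e-06). The manassantin rise was at the edge of the threshold. It passed in 5 of 22 alternatives, was lost with any 1 of the 12 arrays left out (0.22 to 0.26), and had adjusted p-values of 0.00542 to 0.310.

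The 3 probe sets of PLAUR differed for digoxin. The second, 211924_s_at, was higher by 0.60 ± 0.058 (adjusted p = 2.60e-06). The last, 214866_at, read 7.73, 7.99 and 7.81 with digoxin, against 7.76, 7.75 and 7.77 with DMSO, and its difference of 0.08 ± 0.066 was not called (adjusted p = 0.303, 95% interval -0.06 to 0.23). Within an array, the main probe set stood 1.69 ± 0.108 above the last with digoxin and 1.21 ± 0.031 above it with DMSO (SD, n = 3 each). These gaps did not overlap, and they differed by 0.48 (exact permutation test, two-sided, p = 0.1, the smallest that 3 against 3 can give). With rotenone 211924_s_at and 214866_at rose by 0.36 and 0.31 (adjusted p = 0.00426 and 0.0186). With manassantin they stood at 0.21 and 0.25 and were not called (adjusted p = 0.128 and 0.111). These values are adjusted over all 19064 probe sets. At that adjustment the main probe set was not called with manassantin either (adjusted p = 0.0669). The sources used here do not place these probe sets on the transcript.

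**Figure D2:**
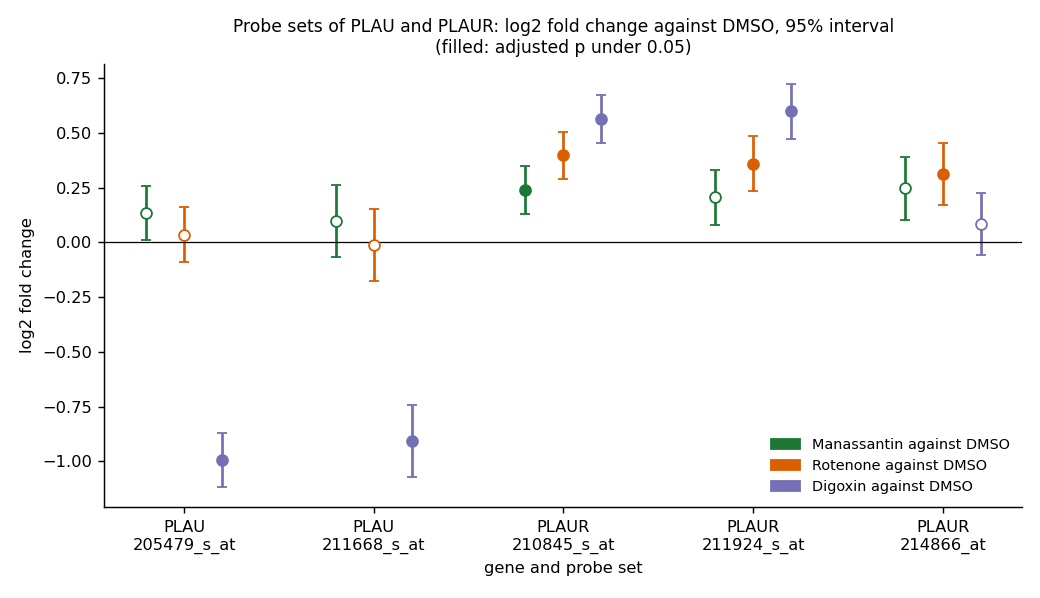
Log2 fold change against DMSO (vertical axis) with its 95% interval for each probe set of PLAU and PLAUR (horizontal axis), coloured by compound. Points are filled where the adjusted p is under 0.05, over 11963 genes for the main probe sets and over 19064 probe sets for the others. The PLAU probe sets lie at -0.99 and -0.91 with digoxin, while the PLAUR probe set 214866_at lies at 0.08 where the other PLAUR probe sets lie at 0.56 and 0.60.

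Of the serpins, SERPINE2 encodes protease nexin-1, a secreted inhibitor of thrombin that also acts on uPA, tPA and plasmin. It read 8.67, 8.56 and 8.60 on the manassantin arrays, 8.51, 8.52 and 8.48 on the rotenone arrays, 8.77, 8.57 and 8.76 on the digoxin arrays and 8.45, 8.44 and 8.40 on the DMSO arrays. Every treated array lay above every DMSO array, though digoxin replicate 2 lay within the manassantin range. The gene rose with digoxin by 0.27 ± 0.058 (SE, adjusted p = 0.00195). It stood at 0.18 ± 0.058 with manassantin (adjusted p = 0.155, 95% interval 0.05 to 0.31) and at 0.07 ± 0.058 with rotenone (adjusted p = 0.540, 95% interval -0.05 to 0.20).

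SERPINB8 encodes an intracellular serpin known to inhibit furin, a processing protease. It read 6.06, 6.17 and 6.25 on the manassantin arrays, 6.21, 6.29 and 6.28 on the rotenone arrays, 6.47, 6.48 and 6.61 on the digoxin arrays and 5.90, 6.31 and 6.18 on the DMSO arrays. The digoxin arrays lay above all others, and the DMSO arrays spread over more than the manassantin and rotenone groups together. The gene rose with digoxin by 0.39 ± 0.092 (SE, adjusted p = 0.00331). Neither manassantin (0.03, 95% interval -0.17 to 0.23) nor rotenone (0.13, 95% interval -0.07 to 0.33) was called.

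SERPINB5 encodes maspin, a clade B serpin that does not act as a protease inhibitor. It was the 1 dim member, below 5.75 on every array, with values of 2.92, 3.04 and 3.37 with manassantin, 3.27, 3.34 and 3.11 with rotenone, 3.16, 3.33 and 3.25 with digoxin and 3.05, 3.20 and 2.95 with DMSO. The groups overlapped in all 6 comparisons, and the largest difference from DMSO was 0.18 ± 0.109 with digoxin (SE, adjusted p = 0.178, 95% interval -0.06 to 0.42). Small changes inside this interval remain possible.

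**Figure D3:**
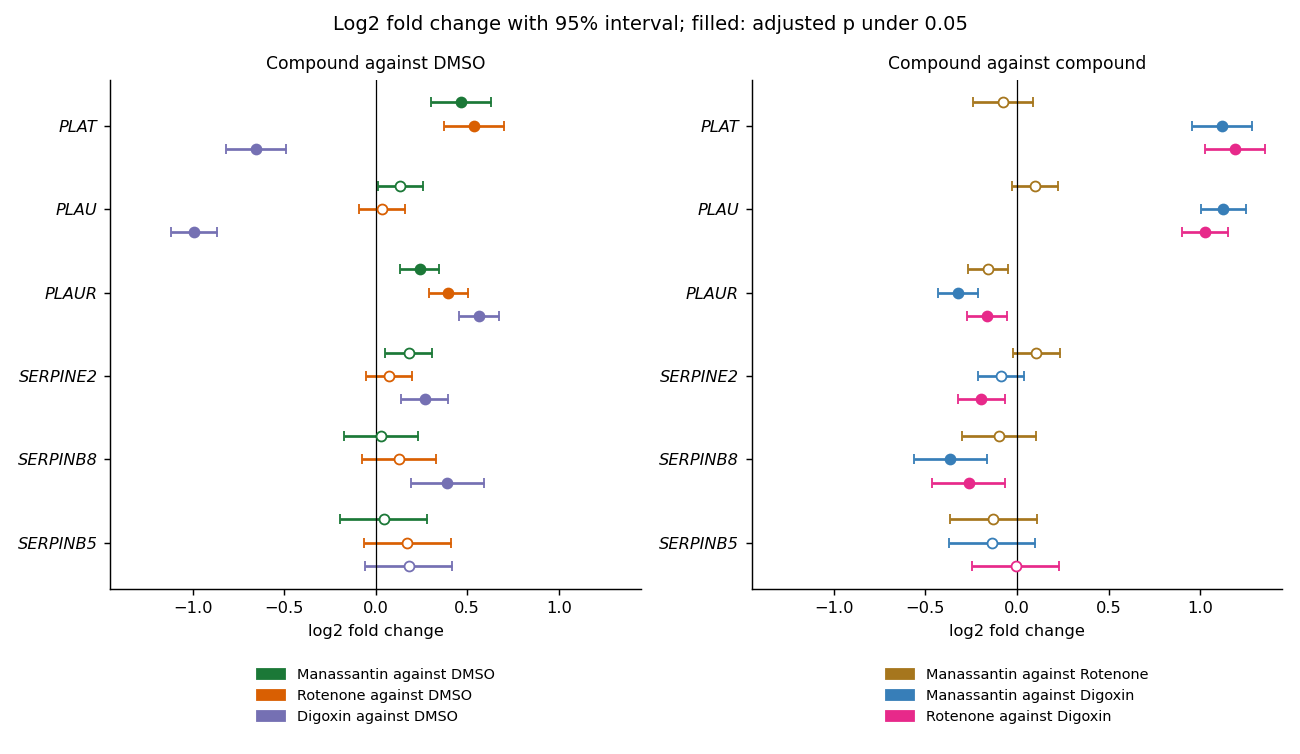
Log2 fold change (horizontal axis) with its 95% interval for 6 genes (vertical axis), against DMSO on the left and between compounds on the right, filled where the adjusted p is under 0.05. The digoxin intervals of PLAT and PLAU lie wholly below 0, and those of PLAUR, SERPINE2 and SERPINB8 wholly above it.

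Counted over the members, digoxin moved 5 of 6 genes, where 54.8% of all genes were called. Of these 3 were higher (28.0% of all genes) and 2 lower (26.9%). Rotenone moved 2 of 6, where 6.94% of all genes were called, with 2 higher (3.55%) and 0 lower (3.39%). Manassantin moved the same 2, PLAT and PLAUR, where 0.970% of all genes were called, with 2 higher (0.853%) and 0 lower (0.117%). The median log2 fold change of the members was 0.16 with manassantin, 0.15 with rotenone and 0.22 with digoxin, where all genes had medians of 0.01, 0.01 and 0.07. These comparisons share the DMSO arrays, so their values are not independent. For digoxin against DMSO, the median of all genes was -0.03 with dim genes left out. It was 0.15 with median centring, a scaling that shifts the members too. Arrays of the pair of groups did not overlap for 4 members with manassantin, 3 with rotenone and 5 with digoxin, where this held for 22.4%, 31.2% and 61.9% of all genes.

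Set against each other, manassantin and rotenone differed in 0 of the 6 members by limma, where 8.47% of all genes were called, 4.69% higher and 3.78% lower. The arrays of these groups did not overlap for 2 members, PLAUR and SERPINE2, and for 29.2% of all genes. At an unadjusted p under 0.05 there was 1, PLAUR, at -0.16 ± 0.050 (SE, adjusted p = 0.0731, 95% interval -0.27 to -0.05). PLAU stood at 0.10 with a 95% interval of -0.02 to 0.22 and SERPINE2 at 0.11 with -0.02 to 0.23. The wider intervals of SERPINB8 (-0.30 to 0.10) and SERPINB5 (-0.37 to 0.11) leave differences of that size possible. Over all genes, same-numbered arrays of these groups had residual correlations of 0.107 to 0.362. Within the 3 pairs, manassantin minus rotenone was -0.08, -0.11 and -0.03 for PLAT and -0.20, -0.18 and -0.10 for PLAUR. The sign was the same in all 3 pairs for 5 members, SERPINB5 being the exception, and for 51.3% of all genes. With the replicate block PLAUR stood at adjusted p = 0.0545 and 0 members were called.

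Manassantin against digoxin gave 4 called members of 6, where 56.7% of all genes were called, with 2 higher (28.1% of all genes) and 2 lower (28.6%). The arrays did not overlap for 4 members and for 59.7% of all genes. PLAT was higher with manassantin by 1.12 ± 0.075 (SE, adjusted p = 1.03e-07) and PLAU by 1.13 ± 0.057 (adjusted p = 1.04e-08), folds of 2.17 and 2.18. PLAUR was lower with manassantin at -0.32 ± 0.050 (adjusted p = 0.000135) and SERPINB8 at -0.36 ± 0.092 (adjusted p = 0.00509). The PLAUR probe set 214866_at ran the other way, at 0.16 (adjusted p = 0.0542). SERPINE2 stood at -0.09 (95% interval -0.22 to 0.04) and was not called.

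Rotenone against digoxin gave 5 called members, where 50.5% of all genes were called, with 2 higher (26.3% of all genes) and 3 lower (24.2%). The arrays did not overlap for 5 members and for 58.1% of all genes. The activator genes were higher with rotenone, PLAT by 1.19 ± 0.075 (adjusted p = 7.95e-08) and PLAU by 1.03 ± 0.057 (adjusted p = 2.81e-08). Lower with rotenone were PLAUR at -0.17 ± 0.050 (adjusted p = 0.0152), SERPINE2 at -0.19 ± 0.058 (adjusted p = 0.0147) and SERPINB8 at -0.26 ± 0.092 (adjusted p = 0.0308). The direction for the receptor gene depended on the probe set: 211924_s_at was called lower with rotenone (-0.24, adjusted p = 0.00453) and 214866_at was called higher (0.23, adjusted p = 0.0126). Single arrays decided some of these calls. PLAUR was lost without rotenone replicate 3 (-0.13), SERPINE2 without digoxin replicate 1 or 3 (-0.16 each) and SERPINB8 without rotenone replicate 1 (-0.24), 2 (-0.28) or 3 (-0.27) or digoxin replicate 3 (-0.22).

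Because PLAUR, SERPINE2 and SERPINB8 rose with digoxin while PLAU fell, their promoters were set side by side. PLAT, which also fell with digoxin, was not among the genes whose windows were read. RefSeq windows on GRCh38.p14, of 250 bases before and 50 after each annotated start, were matched by symbol for PLAU (2 starts), PLAUR (1), SERPINE2 (2), SERPINB5 (1) and SERPINB8 (1). Shown 5′ to 3′ on the strand of the gene are the PLAU window chr10:73910882-73911181 (+ strand), the PLAUR window chr19:43670120-43670419 (- strand) and the SERPINB8 window chr18:63969831-63970130 (+ strand), with motif matches in capitals.
PLAU: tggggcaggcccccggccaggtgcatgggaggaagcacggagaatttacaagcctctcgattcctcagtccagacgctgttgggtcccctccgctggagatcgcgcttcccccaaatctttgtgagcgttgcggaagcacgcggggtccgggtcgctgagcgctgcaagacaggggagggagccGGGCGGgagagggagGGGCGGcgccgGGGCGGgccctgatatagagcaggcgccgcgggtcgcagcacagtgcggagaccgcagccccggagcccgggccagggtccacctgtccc
PLAUR: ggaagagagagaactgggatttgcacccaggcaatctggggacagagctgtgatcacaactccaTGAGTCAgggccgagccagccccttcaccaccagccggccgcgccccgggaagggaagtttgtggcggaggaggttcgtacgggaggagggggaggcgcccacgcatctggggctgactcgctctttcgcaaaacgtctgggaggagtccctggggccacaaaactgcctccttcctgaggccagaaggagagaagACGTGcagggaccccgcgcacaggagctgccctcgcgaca
SERPINB8: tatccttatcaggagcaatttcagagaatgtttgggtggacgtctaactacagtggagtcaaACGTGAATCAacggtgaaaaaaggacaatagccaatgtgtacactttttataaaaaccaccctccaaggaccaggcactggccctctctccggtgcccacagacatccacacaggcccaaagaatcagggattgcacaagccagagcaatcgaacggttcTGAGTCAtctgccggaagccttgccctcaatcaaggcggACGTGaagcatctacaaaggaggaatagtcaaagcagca
The motifs searched on both strands were TGANTCA (AP-1), ACGTG (the core of the hypoxia response element), TGACGTCA (the cyclic AMP response element), GGGCGG (the GC box) and the NF-kB site. They occurred in 7.71%, 21.4%, 1.85%, 44.95% and 5.91% of 35116 windows of this length.

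The PLAU window held 3 GC boxes, at 66, 51 and 40 bases before the start, and its other window, chr10:73910360-73910659, held no match. The PLAUR window held 1 AP-1 match, TGAGTCA, beginning 186 bases before the start, and 1 ACGTG after it. SERPINB8 had 2 AP-1 matches, TGAATCA at 185 bases and TGAGTCA at 28 bases before the start, of which the first overlaps 1 of its 2 ACGTG matches. SERPINE2, which rose, held no AP-1 match, but 1 GC box and 2 overlapping ACGTG matches on opposite strands in one window and 2 GC boxes in the other. SERPINB5, which was not called, held 1 AP-1 match and 2 overlapping GC boxes. GC boxes were thus in windows of PLAU, which fell, SERPINE2, which rose, and SERPINB5, which was not called. None of the windows read here held the NF-kB or the cyclic AMP motif. A match describes letters and is no evidence of binding.

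SERPINB2, SERPINB5 and SERPINB8 lie in a run of 10 clade B serpin genes on chromosome 18, of which 7 were measured. With digoxin SERPINB8 (0.39) and the dim gene SERPINB13 (0.27, adjusted p = 0.0249) rose, 2 of 7 where 54.8% of all genes were called. Of 5 other SERPINB13 probe sets, at -0.13 to 0.30, 1 was called higher, and the main call was lost with quantile normalization (0.20) and without digoxin replicate 1 (0.22) or 2 (0.26) or DMSO replicate 2 (0.27) or 3 (0.26). The others stood at -0.07 for SERPINB7, 0.11 for SERPINB4, 0.14 for SERPINB3, 0.16 for SERPINB10 and 0.18 for SERPINB5, and none of them was called. With manassantin and with rotenone 0 of the 7 were called by limma, and 0 had an unadjusted p under 0.05.

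Related genes were read from 7 lists holding 91 further genes, 83 of them measured and 43 of those dim. Over these, 1 rose and 0 fell with manassantin, 1 rose and 5 fell with rotenone, and 19 rose and 17 fell with digoxin. That is 1.20%, 7.23% and 43.4% called, beside 0.970%, 6.94% and 54.8% of all genes. Among the genes that rose with digoxin, KLK1, HGF, F2, F5, SERPINC1, SERPINB13, SERPING1, SERPINA6, HPN, TMPRSS4, SLPI and PI3 were dim. Among those that fell, only SERPINI1 was dim. The median log2 fold change over the 83 genes was 0.03 with manassantin, 0.01 with rotenone and 0.08 with digoxin.

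In the plasmin system, 13 of 14 listed genes were measured and 8 were dim. With manassantin and with rotenone 0 were called by limma, and 1 in each had an unadjusted p under 0.05. With digoxin 2 rose and 3 fell (median 0.03). ANXA2, which encodes annexin A2, a cell surface docking protein for plasminogen and tPA, fell by 0.41 ± 0.043 on the log2 scale (SE, adjusted p = 5.30e-06), and its 2 other probe sets were called lower as well. S100A10, the partner of annexin A2, stood at 0.14 (adjusted p = 0.0196), a call lost without digoxin replicate 2 or DMSO replicate 3. F12, clotting factor XII, was lower at -0.55 (adjusted p = 9.58e-05), though its other probe set stood at 0.13 and was not called. SERPINI1, neuroserpin, an inhibitor of tPA, was dim and stood at -0.36 (adjusted p = 0.00899), and the dim kallikrein gene KLK1 at 0.31 (adjusted p = 0.0163), a call also lost without digoxin replicate 2 or DMSO replicate 3. PLG, the plasminogen gene, was dim, at 3.49 with manassantin, 3.52 with rotenone, 3.48 with digoxin and 3.44 with DMSO. S100A10 and PLG are named for their roles, and were chosen after their values were seen.

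Among partners and clearance receptors of uPAR, 16 of 18 genes were measured. ITGA5, the integrin chain that pairs with integrin beta 1 to bind fibronectin, rose with manassantin by 0.44 ± 0.064 (SE, adjusted p = 0.0178), with rotenone by 0.34 (adjusted p = 0.00973) and with digoxin by 0.17 (adjusted p = 0.0384). With manassantin it was the 1 called gene of this list, and that call was lost with the 18S control as covariate (0.37), with the compared groups only, and without manassantin replicate 1 (0.42) or 2 (0.41) or DMSO replicate 2 (0.42) or 3 (0.40), with adjusted p-values of 0.000303 to 0.248 over 22 alternatives. Its rotenone call was lost in 1 of 22, with the 18S control as covariate (0.29, adjusted p = 0.0571). Its digoxin call was lost in 8 of 22, 6 of them with 1 array left out (rotenone replicate 1, any digoxin replicate, DMSO replicate 2 or 3), at 0.13 to 0.26 over all 22. Rotenone had 1 higher and 3 lower, with 1 lower without rotenone replicate 2 or any 1 DMSO replicate, and digoxin 3 higher and 4 lower, with 8 higher and 4 lower after median centring. SORL1, a sorting receptor of the LDL receptor family, was lower with rotenone (-0.50, adjusted p = 0.00667) and with digoxin (-0.76, adjusted p = 1.48e-05), and its other probe set was called with digoxin but not with rotenone. VLDLR, a receptor of the same family that takes up complexes of uPA with its inhibitors, was lower with digoxin at -1.26 ± 0.116 (adjusted p = 1.69e-06). EGFR, a growth factor receptor through which uPAR can signal, was lower with rotenone (-0.19, adjusted p = 0.0321) and higher with digoxin (0.64, adjusted p = 2.45e-07). The rotenone call of EGFR was lost in 8 of 22 alternatives, 5 of them with rotenone replicate 1 or 2 or any 1 DMSO replicate left out. For EGFR 3 of 5 other probe sets were called higher with digoxin and 0 of 5 lower with rotenone. FPR1 was lower with rotenone (-0.65, adjusted p = 0.0305) and digoxin (-0.86, adjusted p = 0.000576). Its other probe set did not fall, at 0.03 with rotenone and 0.14 with digoxin, and was not called in either. The rotenone call of FPR1 was lost with the 18S control as covariate (adjusted p = 0.0852) and without rotenone replicate 2 or 3 or any 1 DMSO replicate.

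Of 13 genes for proteins cut by activators or plasmin, 11 were measured, with 0 called by limma for manassantin (2 at an unadjusted p under 0.05), 1 lower for rotenone, and 1 higher and 3 lower for digoxin. PDGFC, a growth factor that tPA activates, was lower with rotenone (-0.17, adjusted p = 0.0464) and with digoxin (-0.32, adjusted p = 8.96e-05). The rotenone call was lost in 15 of 22 alternatives, 10 of them with 1 array left out (each array but digoxin replicate 2 and DMSO replicate 1), at -0.20 to -0.14 over all 22. With digoxin LAMA5, a laminin chain, stood at -0.72 (adjusted p = 4.61e-06), LTBP1, which anchors latent TGF-beta, at -0.64 (adjusted p = 1.12e-05), and the dim growth factor gene HGF at 0.25 (adjusted p = 0.0367). The other probe set of LTBP1 and the 4 others of HGF were not called, and the HGF call was lost without digoxin replicate 1 or 3 or any 1 DMSO replicate.

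All 11 clotting and thrombin genes were measured, 4 of them dim. With digoxin 5 rose and 3 fell, where 54.8% of all genes were called. Of those that rose, F2, F5 and SERPINC1 were dim. With manassantin and with rotenone 0 were called by limma, and 3 in each had an unadjusted p under 0.05. F3, tissue factor, which starts clotting, rose by 0.90 ± 0.050 (SE, adjusted p = 2.41e-08). TFPI2, a matrix-bound inhibitor of plasmin and other serine proteases, rose by 1.40 ± 0.091 (adjusted p = 8.38e-08), and its other probe set by 1.38. THBD, thrombomodulin, fell by 1.38 ± 0.103 on the log2 scale (adjusted p = 2.89e-07). F8, clotting factor VIII, fell by 1.56 ± 0.065 on that scale (adjusted p = 2.54e-09).

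Among the other serpins, 7 of 10 clade B genes were measured. With digoxin SERPINB1, an inhibitor of neutrophil proteases, stood at -0.55 (adjusted p = 0.000126), and its other probe set was called lower too. SERPINB9, the granzyme B inhibitor, was lower at -0.50 (adjusted p = 0.000214), but its other probe set was called higher at 0.78, and their mean stood at 0.14 and was not called, so its direction is uncertain. With rotenone SERPINB9 stood at -0.34 (adjusted p = 0.0256), with its other probe set at -0.12 and not called. This call was lost with the mean of probe sets (-0.23), with the 18S control as covariate (-0.33) and without rotenone replicate 2 (-0.29) or 3 (-0.32) or any 1 DMSO replicate (-0.36 to -0.33). Of 10 genes of other serpin clades, 8 of them dim, SERPINH1, the collagen chaperone HSP47, fell with digoxin by 0.59 ± 0.059 (adjusted p = 3.66e-06), and SERPING1 (0.34, adjusted p = 0.00750) and SERPINA6 (0.31, adjusted p = 0.00140), both dim, rose. With manassantin and rotenone 0 of that list were called by limma, and 2 and 0 had an unadjusted p under 0.05.

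Of 16 further serine proteases and their inhibitors, 11 of them dim, 5 rose and 1 fell with digoxin. Median centring gave 8 and 0, and 2 rose without DMSO replicate 3. The lower call was lost when any 1 array other than manassantin replicate 1, digoxin replicate 1 or DMSO replicate 3 was left out. With manassantin and rotenone 0 were called by limma, and 4 and 3 had an unadjusted p under 0.05. HTRA1, a secreted protease of matrix proteins, rose by 0.88 ± 0.083 (SE, adjusted p = 2.08e-06). The membrane protease genes TMPRSS4 (0.34, adjusted p = 9.76e-05) and HPN (0.35, adjusted p = 0.0182) and the elastase inhibitor gene SLPI (0.34, adjusted p = 0.0283) were dim and higher, and the calls of HPN and SLPI were lost without DMSO replicate 3, that of SLPI also without DMSO replicate 2 or digoxin replicate 3.

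**Figure D4:**
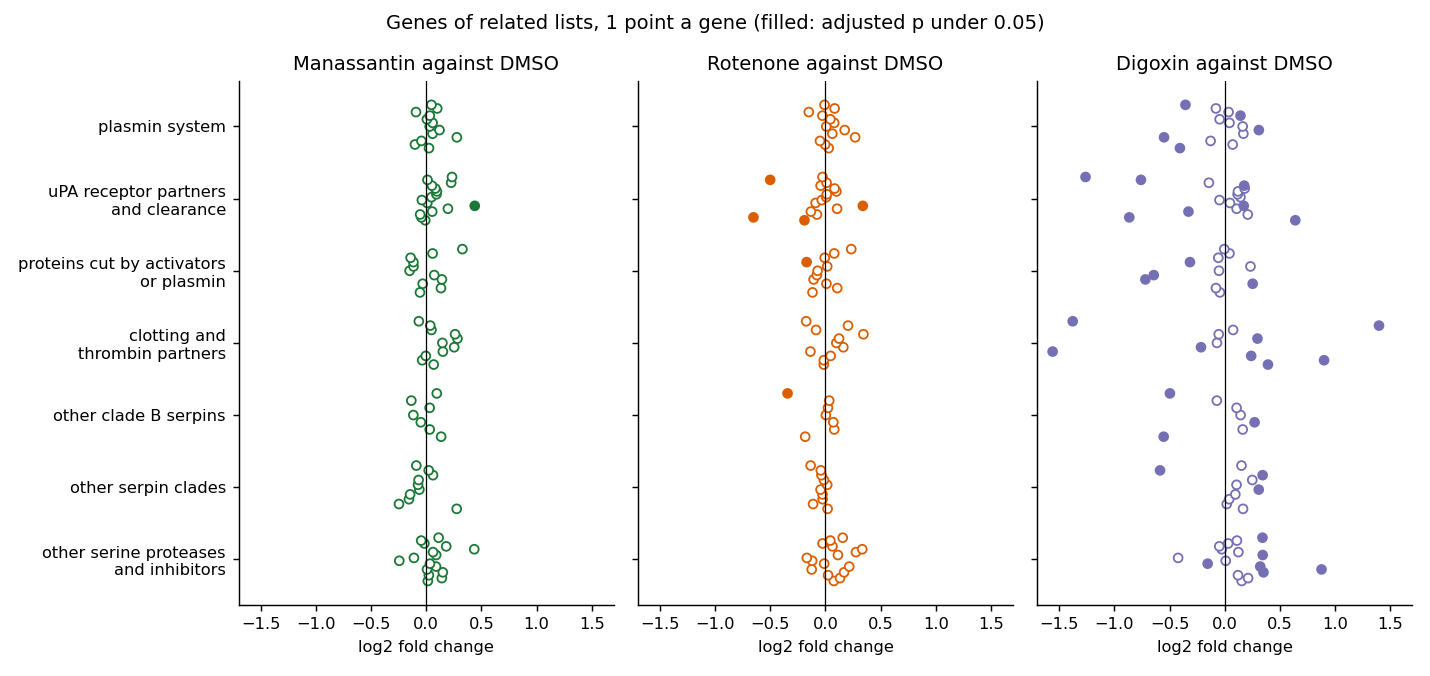
Log2 fold change against DMSO (horizontal axis) of each gene of 7 related lists (vertical axis), 1 panel a compound, filled where the adjusted p is under 0.05. Digoxin gave 36 filled points of 83 genes on both sides of 0, rotenone 6 and manassantin 1, which is ITGA5.

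The genes with the most similar pattern were taken from 6727 others called in at least 1 comparison with DMSO, by Pearson correlation over the 12 arrays. Since the 3 arrays of a group share a treatment and digoxin stands apart, such values are high for many genes and describe likeness only. Nearest to PLAT were RGS4 (r = 0.980), BHLHE40 (r = 0.978) and CLDN4 (r = 0.973). PLAU was closest to FHOD1 (r = 0.997), CNPY2 (r = 0.995) and NPRL2 (r = 0.995), whose log2 fold changes with digoxin were -1.44, -1.39 and -1.44. For PLAUR these were IER3 (r = 0.983), FBRS (r = 0.978) and LPXN (r = 0.970), with IER3 at 0.34 with manassantin, 0.56 with rotenone and 0.87 with digoxin. SERPINE2 ran closest to TERF2 (r = 0.962), COMP (r = 0.956) and PPP1R13L (r = 0.926), and SERPINB8 to RARA (r = 0.959), DDAH1 (r = 0.951) and CCDC57 (r = 0.947).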

How the data were processed

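RNA for 12 arrays was amplified, labelled with biotin and hybridised to Affymetrix GeneChips, per the labels' protocols. The authors deposited log2 values of 22277 probe sets, and the sources used here do not give their background correction, summarisation or normalization. Probe sets were named from the platform annotation, where 19064 had 1 symbol and 1043 several, and 19052 matched a current RefSeq record. The brightest probe set stood for a gene. limma 3.58.1 in R 4.3.3 fitted group means on all 12 arrays (lmFit, eBayes), with Benjamini-Hochberg adjustment within each of 6 comparisons, and was tested on simulated data. Dim means a mean under the 40th percentile (5.75). The number of arrays limits the precision. The members and lists were chosen with earlier results of these data known. Of each list, up to 4 called genes with the largest change per comparison with DMSO are named. Same-numbered arrays of different groups had residual correlations of -0.0347 to 0.0771 for manassantin and DMSO, and all over 0.1 only for manassantin and rotenone (0.107 to 0.362). Scaling, probe set choice, dim genes, prior, weights, the 18S control, the groups fitted and each array were varied. Promoters were read from RefSeq tables on GRCh38.p14.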

Additional observations from a re-analysis of the deposited data

How the results depend on the processing

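Over 22 alternatives, no direction of a called member reversed on the main probe set or on the mean of probe sets. The alternatives did not read the other probe sets alone. For rotenone against digoxin, the PLAUR probe set 214866_at was called higher (0.23), where the main probe set was called lower (-0.17). The counts of called members stayed at 2 for rotenone against DMSO and 5 for digoxin against DMSO in every alternative. They lay at 4 to 5 for manassantin against digoxin. Of all genes, 6.94%, 54.8% and 56.7% were called in these 3 comparisons in the main run. For manassantin against DMSO the count of 2 became 1 with quantile normalization, with median centring and with every probe set tested, and 0 with the 18S control as covariate and with the compared groups only, and it lay at 0 to 1 with 1 array left out. For manassantin against rotenone the count of 0 became 1, PLAUR, with dim genes left out (adjusted p = 0.0267) and with a trended robust prior (adjusted p = 0.0275). Rotenone against digoxin gave 3 to 5 with 1 array left out, with 3 without rotenone replicate 3 or digoxin replicate 3. There PLAUR was also not called with quantile normalization (-0.13) or with the mean of its probe sets (-0.06). In manassantin against digoxin, SERPINE2 was called with median centring (-0.18) and without digoxin replicate 2 (-0.15), and SERPINB5 without manassantin replicate 3 (-0.27). The replicate block left the counts of called members at 2, 2, 5, 0, 4 and 5 over the 6 comparisons and changed no member's call. Over all genes, 116 were called for manassantin against DMSO (3 to 503 in the alternatives, 291 with the block), 830 for rotenone against DMSO (339 to 1614) and 1013 for manassantin against rotenone (500 to 1545). For digoxin against DMSO 6561 were called (5240 to 9741). Manassantin against digoxin gave 6781 (5344 to 10072) and rotenone against digoxin 6039 (5158 to 8990). The number tested varied between alternatives. Median centring gave 5002 higher and 2689 lower genes with digoxin against DMSO, beside 3347 and 3214. Over the related lists with digoxin against DMSO, median centring gave 8 higher and 4 lower uPAR partners (3 and 4 before), 4 and 2 other clade B serpins (1 and 2) and 8 and 0 other proteases and inhibitors (5 and 1). Counts of higher calls ranged over 0 to 3 for the plasmin system, 2 to 8 for the uPAR partners and 2 to 8 for the other proteases and inhibitors. The causes of these changes were not tested, and 3 arrays per group limit what can be seen.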
